A study of Homo sapiens with 4 samples.

Results

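The baseline transcriptome of HEK-293 cells was read from the library of cells that received the scrambled control siRNA. Its members were all rows of the expression table whose locus lay on a whole chromosome and not on an extra contig, which left 23642 of 24934 rows. The 1292 rows left out were all listed at 0. The rows carried 23260 different gene symbols, and 306 symbols stood on several rows.

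HEK-293 is an established human cell line derived from embryonic kidney and transformed with sheared adenovirus 5 DNA. In the study these cells were transfected with 10 nM siRNA and RNA was collected after 48 h, with 1 library each for 2 siRNAs against ZSCAN5A (si4 and si5), 1 siRNA against ZSCAN5B (si1) and the scrambled control. Only the control library was used here, so its cells had also gone through transfection with a lipid reagent and carried a non-targeting siRNA. With 1 library there was no replicate, no test was made, and every value below is a description of this library.

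HEK-293 cells carry the adenoviral E1A and E1B genes, whose products bind the RB family and other growth suppressors and so release the brakes on the cell cycle. The line was made from a culture of whole fetal kidney, an organ that holds nephron progenitors, ureteric epithelium, stroma, vessels and nerves beside the neighbouring adrenal tissue, and neuronal gene expression has been noted in it. It is a common host for the study of receptors and channels because transfection is efficient and many of the receptors of interest are low in it.

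Levels were given as FPKM, the fragments mapped to a gene, scaled to transcript length and to the library's mapped fragments, so that levels can be set side by side between genes. A row was called on at 1 FPKM or above. By this rule 12858 rows were on, 54.4% of all rows, and that share is the background for the counts of on genes below. For lists of protein-coding genes the closer share is 63.1%, that of the 18910 protein-coding rows by RefSeq class. The median was 1.84 FPKM over all rows and 10.2 FPKM over the rows that were on.

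The rows spread over all 5 classes. At 0 stood 5079 rows (21.5%), and another 5705 rows (24.1%) lay above 0 and under 1 FPKM. With loci under 200 bases left out, 3537 rows stood at 0, so part of the rows at 0 were short loci. From 1 to under 10 FPKM there were 6343 rows (26.8%), from 10 to 100 FPKM 5872 rows (24.8%), and above 100 FPKM 643 rows (2.72%). The class above 100 FPKM held 59.3% of the summed FPKM, the class from 10 to 100 FPKM 34.4%, the class from 1 to under 10 FPKM 6.13%, and all rows under 1 FPKM together 0.253%. The bounds cut through a continuous range: 153 rows lay within 10% below 1 FPKM and 141 within 10% above it, with DDN at 0.9993 FPKM and WNT7B at 1.0001 FPKM on either side.

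**Figure D1:**
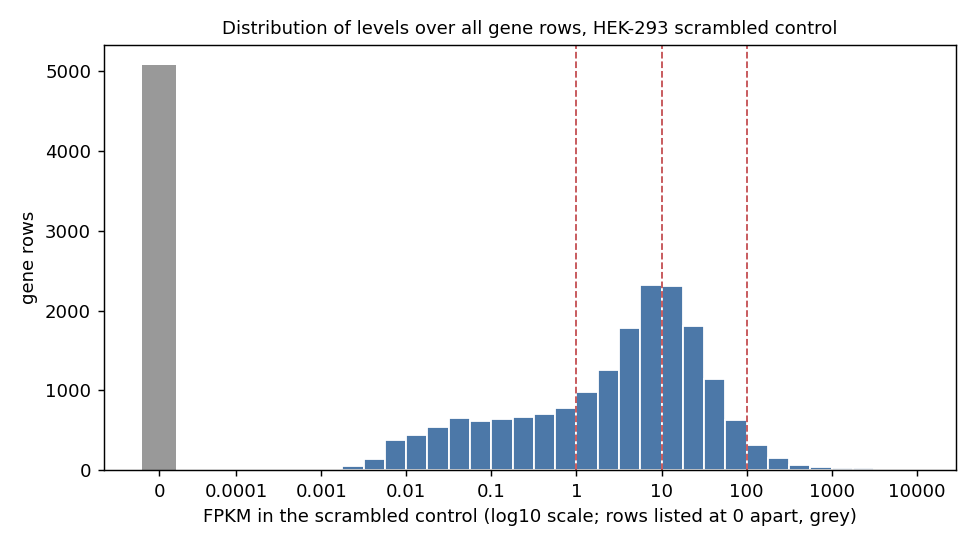
Number of gene rows (vertical axis) by FPKM in the scrambled control (horizontal axis, log10 scale), with the 5079 rows listed at 0 as a grey bar and dashed lines at 1, 10 and 100 FPKM. The rows above 0 peak near 10 FPKM and trail off through a shoulder below 1 FPKM; 95 rows above 0 and under 0.0001 FPKM are not drawn.

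The steps between low values gave an estimate of the depth. Over rows without introns, 1 fragment on 1 kilobase of effective length was worth 0.0171 FPKM, which corresponds to about 58500000 fragments in the library, and 61 of 71 such rows (85.9%) lay within 0.15 of a whole number of fragments, with the step fitted on these same rows. Where a listed 0 stands for no fragments, it allows up to 3 fragments, or 0.0513 FPKM on 1 kilobase of effective length and less on a longer transcript, while a failed estimate has no such limit. Intervals given below are exact Poisson 95% intervals on these estimated fragments and cover counting error only. A value of 0 was not read as absence: PPIE and AMZ2, genes of broad use that were picked out after their values were seen, were listed at 0, and 103 rows above 0 lay under 0.001 FPKM, where 1 fragment on 2 kilobases is worth 0.00855 FPKM.

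Translation genes led the library. Cytosolic ribosomal protein genes filled 17 of the 20 highest rows, 45 of the 50 highest and 65 of the 100 highest, and their 87 rows held 29.6% of the summed FPKM. RPS18, a protein of the small subunit, was highest at 4834 FPKM. It was followed by RPL39 at 4315 FPKM, RPS4X at 4245 FPKM, RPL41 at 4207 FPKM and RPS2 at 4083 FPKM. RPS27 (3869 FPKM), RPL37A (3759 FPKM) and RPLP1 (3672 FPKM) came next, so that proteins of both subunits and the stalk stood among the first 8 rows.

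EEF1A1, which carries aminoacyl-tRNA to the ribosome, was the highest gene that is not a ribosomal protein, at 3614 FPKM and rank 9. RPS16 (3136 FPKM), RPL36 (3055 FPKM) and RPS15A (2934 FPKM) were among the rows that followed, and GAPDH, a glycolytic enzyme, stood at 2905 FPKM and rank 16. RPL26, RPL23, RPL27 and RPL7A closed the first 20 rows between 2818 and 2771 FPKM. The 10 highest rows held 8.18% of the summed FPKM, the 100 highest 36.6% and the 1000 highest 65.3%, and 308 rows made up 50% of it.

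**Figure D2:**
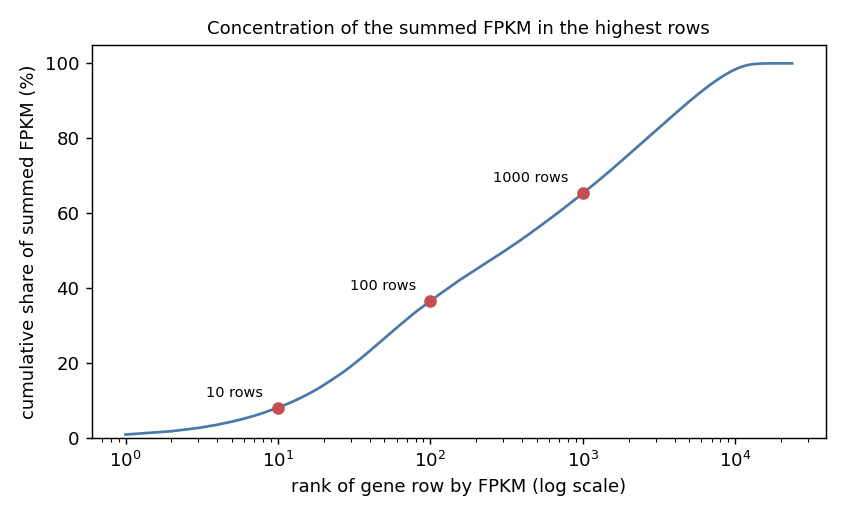
Cumulative share of the summed FPKM in percent (vertical axis) against the rank of the gene row by FPKM (horizontal axis, log scale), with points at 10, 100 and 1000 rows. The 10 highest rows reach 8.18%, the 100 highest 36.6% and the 1000 highest 65.3%.

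Outside the ribosomal proteins, the highest rows had varied roles. TPT1, the translationally controlled tumour protein, stood at 1888 FPKM, and GNB2L1, the ribosome-bound scaffold RACK1, at 1746 FPKM. The elongation factors EEF1G (1378 FPKM) and EEF2 (1030.5 FPKM) flanked PTMA, the chromatin-associated prothymosin alpha (1356 FPKM), MIF, a cytokine (1209 FPKM), NME2, a nucleoside diphosphate kinase (1134 FPKM), and ACTG1, cytoplasmic gamma actin (1063 FPKM). UBB, a ubiquitin gene, was at 1029 FPKM, and the glycolytic enzymes ENO1 and TPI1 at 959.8 and 882 FPKM. In all, 72 rows were above 1000 FPKM.

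Several of these levels cannot be assigned to 1 gene. RPL13AP5, named as a pseudogene, was listed at 3081.5 FPKM on chr19:49990865-49995096 (hg19), where it overlapped RPL13A at 680.0 FPKM. In the same way RPL21P28 (1362 FPKM) shared its locus with RPL21 (71.9 FPKM), and H3F3AP4 (675 FPKM) with H3F3A (2.52 FPKM). RPS17L stood on 2 rows of 2389 FPKM each. The table had 0 rows on the mitochondrial chromosome, while MTRNR2L2 (546 FPKM) and MTRNR2L8 (233 FPKM), nuclear copies close in sequence to the mitochondrial large ribosomal RNA, stood at ranks 114 and 238.

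Ribosomal and proteasome genes were on in most rows. All 76 mitochondrial ribosomal protein rows were on, with a median of 42.6 FPKM and MRPL33 highest at 231 FPKM. Of 87 cytosolic ribosomal protein rows, 83 were on. Those that were not included RPL10L (listed at 0) and RPL3L (0.0775 FPKM), copies known from testis and muscle. Of 39 proteasome rows, 35 were on, led by PSMD8, a subunit of the regulatory particle, at 313 FPKM. The testis and thymus subunits PSMA8 and PSMB11 were listed at 0, and of the immunoproteasome subunits PSMB8 and PSMB9 stood at 0.450 and 0.630 FPKM and PSMB10 was on at 4.04 FPKM. Among 84 rows whose symbols begin as those of heat shock and DNAJ genes do, a set that also takes in HSPG2, the matrix protein perlecan (2.31 FPKM), 64 were on, with HSP90AB1, a cytosolic chaperone, highest at 505 FPKM.

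Large sensory and barrier families lay at the other end. None of 374 olfactory receptor rows was on, 351 of them were listed at 0, and the highest, OR1F1, was at 0.654 FPKM. None of 88 keratin associated protein rows (highest KRTAP19-1, 0.939 FPKM), 27 taste receptor rows (highest TAS2R14, 0.801 FPKM) or 18 interferon rows (highest IFNE, 0.0809 FPKM) was on. Of 51 defensin rows 1 was on, DEFB131 at 2.71 FPKM. Of 50 rows named as interleukins or their receptors 6 were on, with IL6R highest at 3.02 FPKM.

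Zinc finger genes are the class to which the siRNA targets belong. Of 530 rows named ZNF, 431 were on (81.3%, beside 54.4% of all rows and 63.1% of protein-coding rows). They were mostly at low levels, with a median of 3.89 FPKM over the 530 rows, and ZNF711 was highest at 219 FPKM. Of 20 rows named ZSCAN or ZKSCAN, after the SCAN domain, which mediates dimer formation, 15 were on, and ZSCAN18 was highest at 23.4 FPKM. ZSCAN5A stood at 2.42 FPKM and was on. ZSCAN5B stood at 0.0903 FPKM and was not. The study reported its transcript by qRT-PCR and its protein by Western blot in HEK-293 cells, so the low value is not read as absence.

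HOX genes, which set position along the body axis, were on across all 4 clusters, 36 of 39 rows. In the HOXA cluster 11 of 11 were on, with HOXA10 (55.7 FPKM), HOXA9 (44.9 FPKM) and HOXA5 (29.5 FPKM) highest. HOXB had 9 of 10 on, with HOXB9 at 28.3 FPKM and HOXB2 at 27.5 FPKM, and HOXB1 listed at 0. HOXC had 8 of 9 on, led by HOXC4 at 19.1 FPKM, with HOXC12 at 0.0799 FPKM. HOXD had 8 of 9 on, led by HOXD10 at 48.6 FPKM and HOXD11 at 26.9 FPKM, with HOXD12 at 0.141 FPKM. The loci of HOXC4, HOXC5 and HOXC6 begin at the same base, so reads of their shared part cannot be told apart.

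Genes of the nephron progenitor, the embryonic cell that gives rise to the tubule, were mostly on, 12 of 14. All 7 defining transcription factors passed 1 FPKM. SALL1 stood at 6.64 FPKM, SIX2, which keeps progenitors undifferentiated, at 4.24 FPKM, and EYA1, its binding partner, at 4.00 FPKM. WT1 (1.88 FPKM), OSR1 (1.74 FPKM) and PAX2 (1.16 FPKM, interval 1.02 to 1.30) were near the bound. HOXD11 and HOXA11, which pattern the metanephros, were at 26.9 and 14.1 FPKM, and CRABP2, a retinoic acid binding protein, at 14.3 FPKM.

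Of 10 genes of the ureteric bud and early epithelium 5 were on. JAG1, a Notch ligand, stood at 7.72 FPKM, GATA3 at 6.32 FPKM and LHX1 at 4.17 FPKM. RET, the GDNF receptor of the bud, was at 0.214 FPKM and PAX8 at 0.0398 FPKM. The defining genes of this list thus split, 2 on and 3 not.

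Most genes of the differentiated nephron were under 1 FPKM or listed at 0. Of 15 proximal tubule genes 3 were on: GGT1, a brush border peptidase with near-identical copies (7.49 FPKM), LRP2, the endocytic receptor megalin (3.22 FPKM), and MME (1.10 FPKM). CUBN, the partner of megalin, stood at 0.0670 FPKM and the phosphate transporter SLC34A1 at 0.0300 FPKM. Of 13 distal nephron and collecting duct genes, 1 was on, the proton pump subunit ATP6V1B1 at 1.57 FPKM, and 0 were at a level of 2 FPKM. UMOD, AQP2 and SLC12A1 were listed at 0 and SLC12A3 stood at 0.00319 FPKM, about 1 fragment. Of 8 podocyte genes 3 were on, led by PODXL at 9.74 FPKM, while NPHS1, a slit diaphragm protein, stood at 0.0106 FPKM.

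The adrenal gland, which lies on the kidney, was examined by 2 lists. Of 13 genes of the steroid-making adrenal cortex, 1 was on, the electron carrier FDX1 (12.1 FPKM), which mitochondria of many tissues use. NR5A1, the master regulator of steroid-making cells, was at 0.0650 FPKM, CYP17A1 at 0.0616 FPKM, STAR at 0.0275 FPKM and CYP11A1 at 0.00991 FPKM. Of 12 chromaffin and sympathetic genes 2 were on, HAND2 (3.55 FPKM) and the monoamine transporter SLC18A2 (2.87 FPKM). TH, the first enzyme of catecholamine synthesis, was listed at 0, with PNMT at 0.612 FPKM and DBH at 0.0401 FPKM.

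Neuronal genes were examined by 2 lists. Of 19 structural genes 14 were on, led by UCHL1, a neuronal ubiquitin hydrolase, at 316 FPKM, and TUBB2B, a tubulin with a close copy, at 78.2 FPKM. The neurofilament genes NEFL (41.6 FPKM, interval 40.7 to 42.5), NEFM (10.1 FPKM) and NEFH (2.34 FPKM) were all on, as were INA (6.75 FPKM), TUBB3 (9.43 FPKM) and MAP2 (4.66 FPKM). STMN2 and DCX, which mark young neurons, were listed at 0 and at 0.00191 FPKM, about 1 fragment.

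Of 24 neuronal RNA binding and synaptic genes 10 were on. RBFOX2 (24.6 FPKM), the vesicle proteins VAMP2 (20.9 FPKM) and SV2A (13.6 FPKM), and ELAVL2 (12.8 FPKM) were highest. Of the 4 defining genes, SNAP25 was on at 2.22 FPKM, and RBFOX3 (0.256 FPKM), ELAVL4 (0.0923 FPKM) and SYN1 (0.0461 FPKM) were not.

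Neural progenitor genes were on in 14 of 23 cases. The SOXC factors SOX4 (68.8 FPKM) and SOX11 (17.0 FPKM) were highest, followed by POU3F2 (13.3 FPKM), ZIC2 (11.6 FPKM) and DLX2 (10.2 FPKM). SOX2 stood at 7.92 FPKM, PAX6 at 3.83 FPKM and NES, the intermediate filament nestin, at 1.38 FPKM, while SOX1 was at 0.00438 FPKM. Of 14 glial genes 5 were on, led by PMP22 (19.7 FPKM), the glutamate transporter SLC1A3 (10.5 FPKM) and MBP (8.75 FPKM). GFAP and S100B stood at 0.119 and 0.129 FPKM.

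Of 19 pluripotency genes 5 were on. LIN28B, an RNA binding protein that blocks let-7 processing, was highest at 23.1 FPKM and SOX2 stood at 7.92 FPKM. DNMT3B, a de novo DNA methyltransferase (5.12 FPKM), KLF4 (3.79 FPKM) and TERT, the telomerase subunit (1.09 FPKM, interval 0.961 to 1.24), were also on. POU5F1 was at 0.319 FPKM (interval 0.197 to 0.475), with copies elsewhere in the genome, NANOG at 0.00903 FPKM, and LIN28A was listed at 0. The paralogs LIN28A and LIN28B thus stood in different classes.

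**Figure D3:**
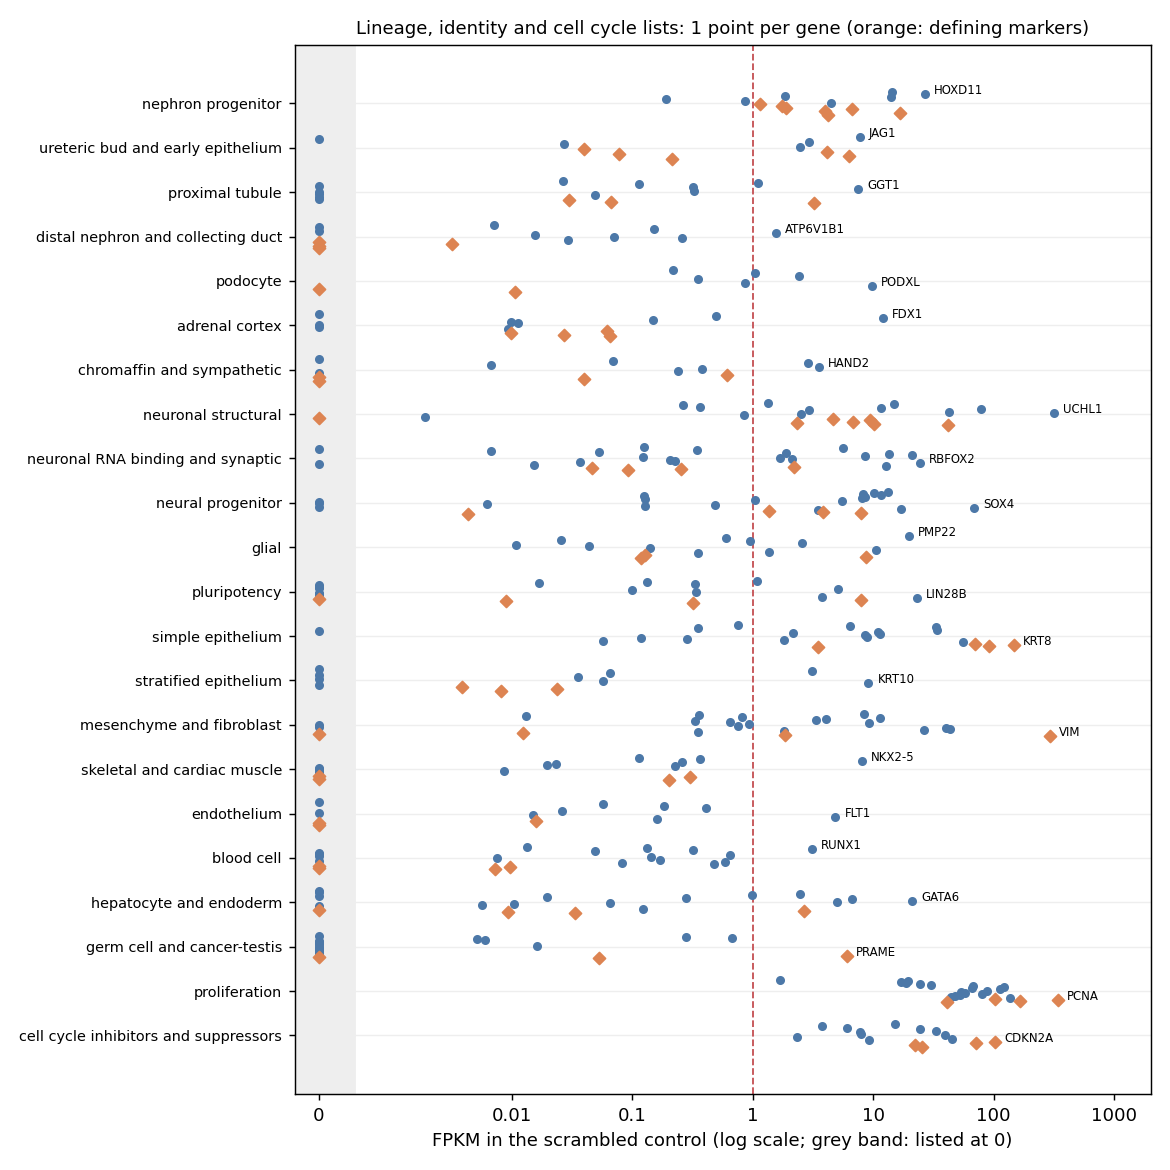
FPKM in the scrambled control (horizontal axis, log scale, genes listed at 0 in the grey band) for the members of 22 lineage, identity and cell cycle lists (vertical axis), 1 point per gene, orange diamonds for the defining markers a dashed line at 1 FPKM and the highest gene of each list named. All 7 defining nephron progenitor genes and all 22 proliferation genes lie to the right of the line, while 1 of 20 blood cell genes does.

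Of 20 genes in the simple epithelial list, which also holds the neural cadherin CDH2, 14 were on. KRT8 and KRT18, the keratin pair of simple epithelia, stood at 148 and 70.4 FPKM, EPCAM at 91.1 FPKM and KRT19 at 55.2 FPKM. CDH1, epithelial cadherin, was on at 3.52 FPKM, beside CDH2 at 33.8 FPKM. Over the keratin family, 5 of 55 rows were on and 36 were listed at 0, so the family was carried by a few members. Of 12 genes of stratified epithelium 2 were on, KRT10 (9.15 FPKM) and SFN (3.12 FPKM), and KRT5, KRT14 and TP63 lay between 0.0039 and 0.0239 FPKM.

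Of 23 mesenchymal genes 11 were on. VIM, the intermediate filament vimentin, was highest at 295 FPKM. FN1, fibronectin (43.2 FPKM), SPARC (40.5 FPKM), COL6A1 (26.3 FPKM) and ACTA2 (11.3 FPKM) followed. COL1A1 stood at 1.85 FPKM, PDGFRB at 0.0124 FPKM, and COL1A2, THY1 and DCN were listed at 0. The epithelial keratins and vimentin were thus high in the same library, and a bulk library cannot say whether in the same cells.

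Most marker genes of muscle, vessels and blood were under 1 FPKM or listed at 0. Of 17 muscle genes, NKX2-5 (8.05 FPKM) was on, with MYOD1 at 0.203 FPKM, DES at 0.301 FPKM, and MYOG and TNNT2 listed at 0. Of 12 endothelial genes FLT1 (4.86 FPKM) was on, with VWF at 0.0158 FPKM, and PECAM1 and CDH5 listed at 0. Of 20 blood cell genes RUNX1 (3.09 FPKM) was on, with PTPRC at 0.00736 FPKM, and CD3E and GATA1 listed at 0. In each of these 3 lists a regulator or receptor was on and none of the defining genes was.

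Of 20 hepatocyte and endoderm genes 5 were on, all of them transcription factors: GATA6 (21.1 FPKM), FOXA1 (6.67 FPKM), GATA4 (5.04 FPKM), FOXA2 (2.64 FPKM) and CDX2 (2.48 FPKM). The liver products ALB and AFP stood at 0.0335 and 0.00936 FPKM, and SOX17 was listed at 0. Of 21 germ cell and cancer-testis genes that were matched, PRAME (6.05 FPKM) was on and 14 were listed at 0, DAZL among them, with DDX4 at 0.0533 FPKM. Of 40 rows named MAGE 6 were on, MAGED2 (99.7 FPKM), MAGED1 (48.2 FPKM), MAGEF1 (44.3 FPKM), MAGEH1 (6.03 FPKM) and MAGED4B on 2 rows of equal value (2.34 FPKM), and no row named MAGEA, MAGEB or MAGEC was.

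All 22 proliferation genes were on. PCNA, the replication clamp, was highest at 339 FPKM, TOP2A at 164 FPKM, CDK1 at 136 FPKM, UBE2C at 122 FPKM and TYMS at 114 FPKM. CCNB1 and MKI67 stood at 102 and 41.3 FPKM. All 15 genes of the list of cell cycle inhibitors and RB and p53 pathway genes were also on. That list also holds MDM2 and MDM4, which oppose p53 and are not growth suppressors. CDKN2A, whose locus encodes the inhibitors p16 and p14ARF, stood at 103 FPKM and CDKN1A, an inhibitor of cyclin-dependent kinases, at 71.3 FPKM. CDKN1B (45.2 FPKM), CDKN2C (39.5 FPKM) and RBL2 (33.3 FPKM) followed. RB1 stood at 22.3 FPKM, beside a list median of 22.3 FPKM. High levels of growth genes and of some of their inhibitors therefore stood side by side. At 10 FPKM or above were 21 of the 22 proliferation genes and 9 of the 15 genes of the inhibitor and pathway list.

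Receptor tyrosine kinases were on in 24 of 37 cases, none above 100 FPKM. PTK7, a pseudokinase of the WNT pathway, was highest at 31.0 FPKM, followed by the collagen receptor DDR1 (26.0 FPKM), ERBB2 (16.7 FPKM), EPHB4 (15.5 FPKM) and FGFR2 (15.5 FPKM). G protein coupled receptors were lower. Of 68 such receptors 23 were on, 9 were listed at 0, and the median was 0.296 FPKM. CXCR4, a chemokine receptor, was highest at 25.4 FPKM, followed by the protease receptors F2RL1 (16.5 FPKM) and F2R (16.4 FPKM), SMO (15.4 FPKM) and the adenosine receptor ADORA2B (8.50 FPKM).

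The proteins through which such receptors act were listed separately. Of 28 G proteins, adenylyl cyclases, arrestins and receptor kinases 23 were on, with a median of 11.7 FPKM. GNAS, the stimulatory alpha subunit, stood at 638 FPKM, the beta subunits GNB1 and GNB2 at 134 and 106 FPKM, GNAI2, an inhibitory alpha subunit, at 45.3 FPKM, and the receptor kinase GRK6 at 35.1 FPKM. Of 54 ion channel genes 26 were on. VDAC1, the pore of the outer mitochondrial membrane, was highest at 215 FPKM, and the highest others were the scramblase ANO6 (16.8 FPKM), the mechanosensitive channel PIEZO1 (16.3 FPKM), KCNK1 (15.5 FPKM) and ASIC1, listed under an older symbol (13.1 FPKM).

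Of 24 pattern receptors and adaptors 9 were on, and all 9 were sensors of cytosolic RNA, adaptors or kinases. IRAK1 was highest at 62.5 FPKM, followed by MAVS (14.6 FPKM), TMEM173, the adaptor STING (14.6 FPKM), IRAK4 (6.92 FPKM) and IFIH1 (2.84 FPKM). None of the 10 Toll-like receptors was on. TLR3 stood at 0.313 FPKM, TLR9 at 0.0233 FPKM and TLR2 at 0.0107 FPKM, and TLR4 was listed at 0. Over all 27 lists, 253 of 577 matched members were on; the lists were written for known lineages, so this share is no estimate for genes at large.

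**Figure D4:**
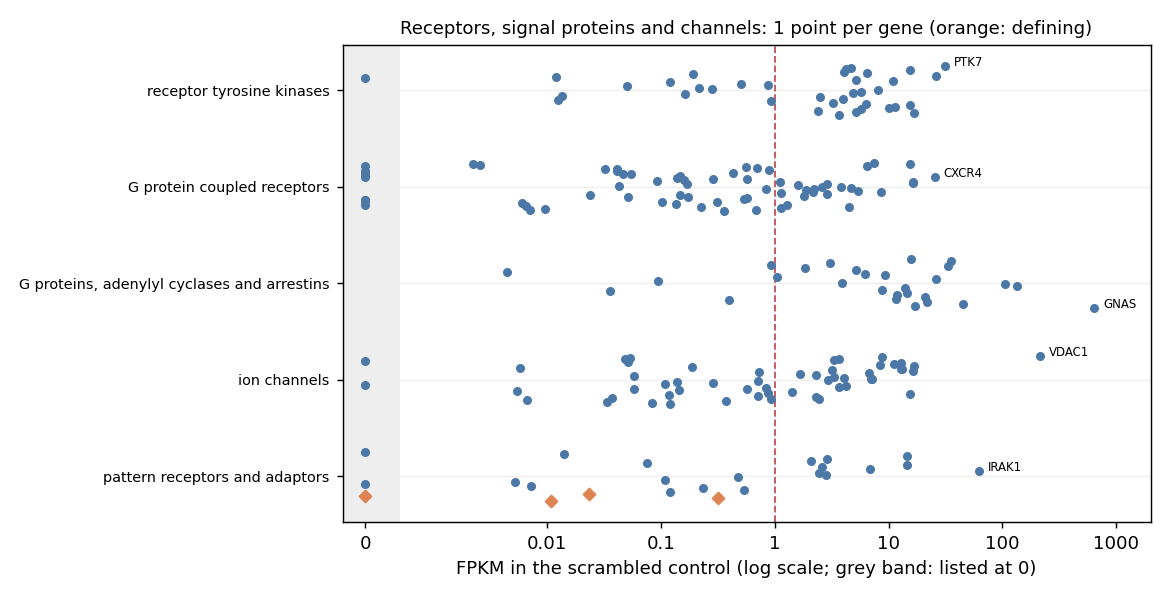
FPKM in the scrambled control (horizontal axis, log scale, genes listed at 0 in the grey band) for receptors, signal proteins, channels and pattern receptors (vertical axis), 1 point per gene, with a dashed line at 1 FPKM, orange diamonds for defining markers and the highest gene of each list named. G proteins and cyclases lie mostly right of the line (23 of 28), G protein coupled receptors mostly left of it (23 of 68 on).

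Promoter sequence was compared between the classes for the 14959 of 18653 protein-coding symbols (80.2%) that were matched to the RefSeq promoter table (GRCh38.p14), 250 bases before to 50 bases after the start. Where a symbol had several promoters, the first listed was taken. It need not be the start of the transcripts that gave the FPKM value. The 100 bases before the start are shown for genes that were on, as examples of a ribosomal protein, an elongation factor, the replication clamp and the neuronal, mesenchymal, epithelial and pluripotency genes that led their lists. Capitals mark a match to 4 motifs, each searched as written and as its reverse complement, none of which holds another. They were the TATA box (TATAAA), the CCAAT box, the GC box (GGGCGG) and an ETS-type motif (CCGGAAG).
RPS18, chr6:33271975-33272074, plus strand: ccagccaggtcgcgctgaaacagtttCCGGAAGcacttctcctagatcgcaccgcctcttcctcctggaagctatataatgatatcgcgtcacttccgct
EEF1A1, chr6:73521033-73521132, minus strand: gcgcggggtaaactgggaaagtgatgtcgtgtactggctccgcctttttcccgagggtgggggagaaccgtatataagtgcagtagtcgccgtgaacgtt
PCNA, chr20:5126623-5126722, minus strand: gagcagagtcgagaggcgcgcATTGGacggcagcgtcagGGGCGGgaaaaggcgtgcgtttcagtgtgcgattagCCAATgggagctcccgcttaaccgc
UCHL1, chr4:41256828-41256927, plus strand: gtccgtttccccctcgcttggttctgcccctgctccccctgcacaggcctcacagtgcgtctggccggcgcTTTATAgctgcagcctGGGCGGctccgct
VIM, chr10:17228141-17228240, plus strand: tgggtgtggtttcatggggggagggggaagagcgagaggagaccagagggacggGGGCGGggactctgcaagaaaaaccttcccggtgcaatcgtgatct
KRT8, chr12:52926470-52926569, minus strand: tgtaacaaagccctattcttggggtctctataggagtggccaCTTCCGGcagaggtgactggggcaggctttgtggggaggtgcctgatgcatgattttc
LIN28B, chr6:104940865-104940964, plus strand: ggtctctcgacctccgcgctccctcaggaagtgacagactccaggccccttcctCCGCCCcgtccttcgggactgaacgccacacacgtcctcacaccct

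For comparison, the same stretch is shown for a liver product and for a water channel and a secreted protein of the kidney, which were not on.
ALB, chr4:73404187-73404286, plus strand: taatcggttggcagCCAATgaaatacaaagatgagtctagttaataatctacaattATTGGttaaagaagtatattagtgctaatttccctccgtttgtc
AQP2, chr12:49950637-49950736, plus strand: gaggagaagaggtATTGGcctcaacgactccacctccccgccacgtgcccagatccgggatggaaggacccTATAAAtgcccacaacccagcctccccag
UMOD, chr16:20352716-20352815, minus strand: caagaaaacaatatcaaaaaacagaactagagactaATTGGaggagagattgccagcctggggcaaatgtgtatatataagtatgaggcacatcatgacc

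Among the genes that were on, PCNA matched the CCAAT box and the GC box. UCHL1 matched the GC box and, only as its reverse complement, the TATA box. VIM and LIN28B matched the GC box, RPS18 and KRT8 the ETS-type motif, and EEF1A1 none of the 4 in these 100 bases. ALB and UMOD matched the CCAAT box, and AQP2 the CCAAT box and the TATA box. Over the whole windows, median GC content was 48.7% at 0, 59.3% above 0 and under 1 FPKM, 66.0% in both classes from 1 to 100 FPKM and 63.7% above 100 FPKM, beside 63.0% over all 14959 matched protein-coding genes and 58.7% over all promoters of the table. The observed over expected CpG ratio had medians of 0.219, 0.467, 0.823, 0.871 and 0.882 in the 5 classes.

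The GC box was found in 20.2% of promoters of genes at 0 and in 46.2%, 70.0%, 73.6% and 71.6% of the classes above, against 59.8% over all matched protein-coding genes and 45.0% over all promoters of the table. The ETS-type motif went from 3.38% at 0 to 26.5% above 100 FPKM, against 14.6% and 10.3% over the same 2 sets. The TATA box sequence, on either strand and anywhere in the window, did not follow the level in 1 direction. Its shares were 25.4% at 0, 12.8% and 5.65% in the next classes, 4.08% from 10 to 100 FPKM and 11.2% above 100 FPKM, against 9.39% and 11.5%. Counted only as TATAAA on the sense strand at -40 to -16, the shares were 11.2%, 5.80%, 1.69%, 1.02% and 4.86% in the 5 classes. Over the same 2 sets this narrower count gave 3.67% and 2.30%. The CCAAT box ranged from 32.9% to 45.6% between classes, against 36.4% and 34.6%. Genes are not replicates and many share ancestry, a match is not a binding site, and these shares were not tested. The classes also differed in GC content, on which the frequency of such short sequences depends, and the shares were not adjusted for it.

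**Figure D5:**
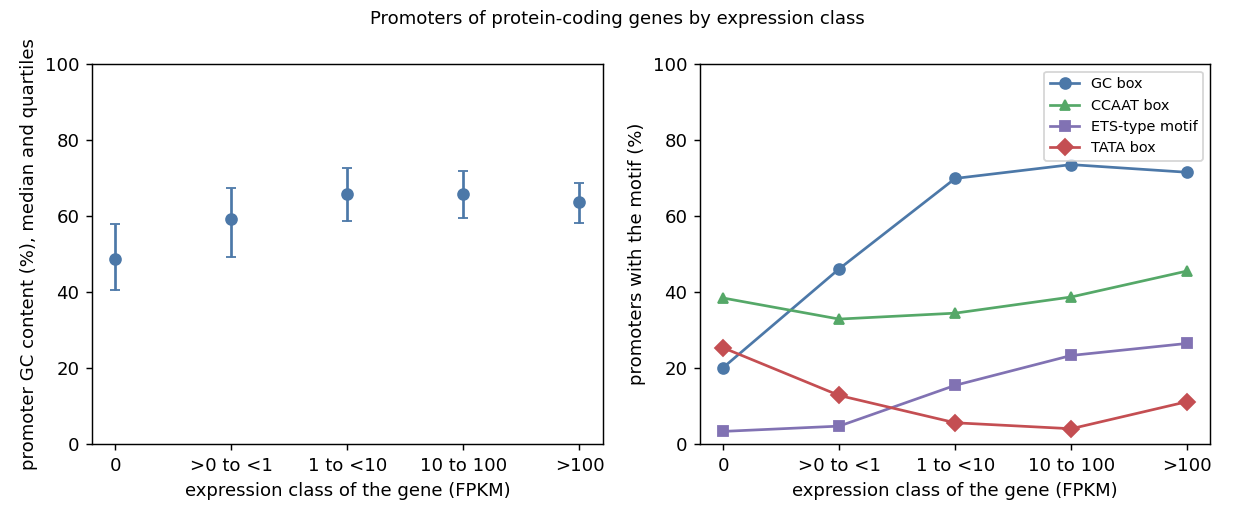
Left, GC content in percent of 300-base promoters (median with quartiles) by expression class of the gene in FPKM. Right, percent of promoters with the GC box, CCAAT box, ETS-type motif or TATA box in each class; GC box shares reach 70.0% to 73.6% in the classes above 1 FPKM, and TATA box shares are highest at 0 and second highest above 0 and under 1 FPKM.

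Rows of small RNAs need a separate reading, since a poly(A) library holds few of their mature products. Of 1250 rows named MIR, 18 were on and 1220 were listed at 0. Of those 18, 4 were long host transcripts (MIR17HG, MIR210HG, MIR497HG and MIR600HG), which are no small RNAs. Of 265 box C/D and 106 box H/ACA snoRNA rows 11 and 52 were on. Their values moved in whole steps: in 13 of 17 groups of rows of equal span, every value was a whole multiple of the smallest (tolerance 0.1%), and 37 of these 43 rows were 1 to 4 times it. The smallest row of each group is a whole multiple by construction. Some groups, such as 3 rows of MIR1244 copies, held equal values only and so show no step. Among rows of 100 bases, SNORD16 stood at 23.5 FPKM, MIR658 at 47.0 FPKM, 2 times that, and MIR5047 at 235 FPKM, 10 times that. The smallest step on these spans already passed 1 FPKM, so a row of this length can be on from very few fragments.

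Most of these rows lay in longer genes. Of the 18 MIR rows that were on, 12 overlapped a longer gene, and of 63 snoRNA rows 57 did. MIR5047 lay in DDX5, which stood at 124 FPKM, SNORA70 (153 FPKM) in RPL10 at 533 FPKM, and SNORD22 (137 FPKM) in SNHG1 at 60.7 FPKM. The hairpin of MIR658 is shown because its row illustrates the steps, with the mature strand in capitals (RefSeq, GRCh38.p14).
MIR658, chr22:37844272-37844371, minus strand: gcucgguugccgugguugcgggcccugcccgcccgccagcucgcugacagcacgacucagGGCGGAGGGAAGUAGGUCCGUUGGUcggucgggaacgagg

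The hairpins of MIR1244-1, MIR1244-2 and MIR1244-3 are identical in RefSeq, and 3 rows named MIR1244-1 or MIR1244-3 carried the same value of 48.8 FPKM, so their fragments cannot be assigned to 1 copy.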

How the data were processed

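Poly(A) RNA of HEK-293 cells given the scrambled control siRNA (10 nM, 48 h) was sequenced as 1 library; labels and methods name different stranded mRNA kits. The authors trimmed and aligned reads to hg19 and computed FPKM values, which they deposited as 1 table; the submitters' processing notes list CASAVA 1.8.2, Trimmomatic 0.30, TopHat2 2.1.0 and Cufflinks 2.2.1. The gene annotation was not given in the sources used here. The deposited FPKM values were used unchanged, without a pseudocount. Beside 1 FPKM column for each library, the table holds 0 other columns of per-sample values. The columns of the knockdown libraries were not used here.

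Rows on contigs outside the whole chromosomes were left out. Rows were put in classes by FPKM (0, under 1, 1 to 10, 10 to 100, above 100) and called on at 1 FPKM. Members, lists and classes were chosen with earlier results of these data known. Named genes were the 20 highest rows, the defining and 5 highest members of each list, the highest member of each family, the HOX genes and the siRNA targets; others are examples, and some genes under this rule are not reported here. Of 578 list members 577 were matched. Depth was estimated from the steps of low FPKM values on unbroken rows, with 210 bases subtracted from the length; for 100 to 250 bases it was 54100000 to 60200000 fragments. The step fit was tested on simulated data. Gene classes and promoters came from RefSeq tables, matched by symbol. Alternatives covered rows of 1 symbol, contigs, rescaling to a common sum, short loci and the 1 FPKM level. Protein features were not analysed here. Python 3.11.15, NumPy 2.4.6, pandas 2.3.3, SciPy 1.17.1 and matplotlib 3.10.9 were used.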

Additional observations from a re-analysis of the deposited data

How the results depend on the processing

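Rescaling the FPKM values to a sum of 1000000 raised the number of rows above 100 to 1507 and the number above 1000 to 128, because the deposited values sum to 488036. The class counts, the shares held by the highest rows, the 20 highest rows and the totals of members on over lists and families otherwise stayed within the limits used (1.5 times for counts) under summed or highest rows of 1 symbol, all contigs and loci under 200 bases left out, and the totals over lists and families also at 0.5 and 2 FPKM. The extra contigs added only rows at 0, so that setting could change only the count at 0. For shares of the summed FPKM the limit was a 95% binomial interval that treated them as shares of rows, so it is only a rule of thumb. Of 50 single lists and families, 7 moved under the rescaling, 6 at 0.5 FPKM, 3 at 2 FPKM and 3 without short loci. At 2 FPKM these were the histone cluster genes (20 on), the clustered protocadherins (2 on) and the distal nephron list (0 on), and without short loci the MIR rows (4 on) and the snoRNA classes (1 on each). At 0.5 FPKM the blood cell list had 3 on, the germ cell list, the keratin associated proteins, the defensins and the taste receptors 2 each, and the olfactory receptors 1. No paired analysis was possible because each group had 1 library. Depth limits low rows, where 3 fragments are worth 0.0513 FPKM on 1 kilobase of effective length and less on longer transcripts, and short loci, where very few fragments can pass 1 FPKM. Without a replicate, variation between cultures is unknown.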

Other observations

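By RefSeq gene class, 18910 rows were protein-coding, of which 63.1% were on, and they held 96.6% of the summed FPKM. Of 863 long non-coding RNA rows 24.1% were on. By chromosome, with Y left out, the share of rows on was lowest on chromosome 21 (41.0% of 293 rows) and X (41.8% of 1061 rows) and highest on chromosome 16 (61.2% of 957 rows) and 18 (60.2% of 332 rows). The highest row was a cytosolic ribosomal protein gene on all but 3 of these chromosomes, where it was SOD1, a superoxide dismutase, at 442 FPKM on chromosome 21, TPT1 at 1888 FPKM on chromosome 13 and ACTB, beta actin, at 718 FPKM on chromosome 7.

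Histone cluster genes, whose main transcripts lack a poly(A) tail, were on in 33 of 74 rows (20 at a level of 2 FPKM), with HIST1H2BK highest at 80.7 FPKM. Clustered protocadherins, neuronal cell surface proteins, were on in 4 of 55 rows (2 at a level of 2 FPKM), PCDHGC3 highest at 9.79 FPKM. Most rows named PCDHG end at the same base, as do those named PCDHA, so reads of their shared parts cannot be told apart. Of 332 solute carrier rows 179 were on, led by SLC25A5, the mitochondrial ADP/ATP carrier, at 335 FPKM. Of 39 kinesins 30 were on, led by KIF22, a chromosome-binding motor, at 58.0 FPKM, and of 144 rows named LINC 23 were on, led by LINC00493 at 83.7 FPKM.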
